A study of Mus musculus with 61 samples.

Results

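Fetal mouse liver was followed across midgestation by setting 4 RNA sequencing libraries of embryonic days E15.5 and E16.5 against 4 of embryonic days E13.5 and E14.5. The libraries were taken by the tissue and stage in the column headers of the deposited table, which gave 8 of the 61 libraries of the series, 2 for each of the 4 stages. Stage is the only labelled difference between them, and strain, genotype and treatment are not given in the labels used here. The labels call the libraries of a stage replicates and do not say that they came from separate animals. The p-values and standard errors thus measure only how far libraries of the same stage spread, and that spread can be technical. In the main fit it was taken over 14 liver libraries, and it leaves out the difference between the 2 stages of a group. RNA of Xist and of Y-linked genes was present in each of the 8 libraries, and whether embryos were pooled is not given. The whole series covers 4 tissues, with liver sampled at 7 stages between E11.5 and the day of birth (P0) and the other 3 tissues being parts of the brain, and its title concerns the remodelling of DNA methylation in fetal life.

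The fetal liver has 2 jobs at this time. It is the main site of blood formation, where red cell precursors crowd between the parenchymal cells and where granulocytes, macrophages and B cell precursors also arise. Its parenchymal cells, the hepatoblasts, meanwhile mature into hepatocytes, which secrete most plasma proteins and later take over urea synthesis, glucose release, drug oxidation and bile formation. A sample of whole liver therefore mixes these lineages, and in such bulk RNA a change in the share of a cell type and a change in its RNA per cell cannot be told apart. The values are TPM, each transcript's share of the library corrected for length, and so they are relative: a gene can move because other transcripts moved.

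The libraries carried 12104 to 12610 genes at 1 TPM or more, and globin transcripts made up 32.6 to 38.8% of all TPM. Alb and Afp, of hepatocytes, and the adult globins, of red cells, were abundant in all 8. The 2 libraries of E15.5 stood apart. Transcripts annotated as miRNA genes summed to 0 and 1.2 TPM in them and to 71.12 to 166.73 TPM in the other 6 liver libraries, and in the 8 E15.5 libraries of all 4 tissues the sum was at most 4.31 TPM, against at least 55.48 TPM in the 49 other libraries with a clear stage. The mitochondrial gene mt-Co3 stood at 1702 and 1091 TPM at E13.5, at 9144 and 8542 TPM at E14.5, at 156 and 165 TPM at E15.5 and at 7351 and 8240.4 TPM at E16.5. Its call as lower (-1.63) thus turned to higher without the E15.5 libraries (1.16), and that of the mitochondrial gene mt-Nd3 as higher (1.14) to lower (-1.27); mt-Nd3 had 1678 and 1483 TPM at E15.5 and at most 258 TPM in the other 6 libraries. Counts of the main comparison were therefore also taken with the E15.5 libraries left out. Replicate 2 of E13.5 held 1189 TPM of small nuclear RNA, where no other of the 8 exceeded 45.97 TPM. Ribosomal protein genes summed to 70722 to 76455 TPM at E15.5 and E16.5 and to 98325 to 103266 TPM at E13.5 and E14.5.

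Values were compared as log2(TPM + 1), so that folds of genes with low TPM are understated. A gene was called when its limma p, adjusted by the Benjamini-Hochberg method over the 12989 genes tested, was below 0.05 and its log2 difference was at least 1 in size. By this rule 571 genes were higher at E15.5 and E16.5, or 4.4% of those tested, and 85 were lower, or 0.654%; the median over all tested genes was -0.08. With the E15.5 libraries left out, 774 genes were higher and 123 lower. Of the 571 higher genes 556 were among the 774. Of the 85 lower genes 37 were among the 123, made up of 31 of 36 protein-coding genes and 6 of 49 pseudogenes, small RNAs and other noncoding entries. The noncoding entries of the lower list thus rest mostly on the E15.5 libraries. After median-of-ratios scaling, which moved the median of all genes to -0.002, 671 genes were higher and 70 lower.

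Leading the higher genes was Fbp1, fructose-1,6-bisphosphatase, a key enzyme of glucose formation (ENSMUSG00000069805.6, mm10 chromosome 13, 62864753 to 62888282). It stood at 25.6, 19.1, 46.7 and 52.8 TPM in the E15.5 and E16.5 libraries, against 0.18, 0.21, 0.62 and 1.12 TPM in those of E13.5 and E14.5, a log2 difference of 4.52 ± 0.12 (SE, n = 4 libraries a group, limma adjusted p = 1.9e-10). The gene was near absence at E13.5 and the groups are far apart. Cps1, which makes carbamoyl phosphate at the entry of the urea cycle (ENSMUSG00000025991.8, mm10 chromosome 1, 67123026 to 67231259), went the same way at 25.8, 20.7, 54.7 and 72.5 TPM at E15.5 and E16.5, against 0.52, 0.52, 2.16 and 1.56 TPM at E13.5 and E14.5 (4.24 ± 0.11, adjusted p = 1.6e-10). Other genes of hepatocyte metabolism or secretion with large differences were Hsd17b13, a lipid droplet protein (4.21), Azgp1, a secreted zinc-binding glycoprotein (4.11), and Sult1a1, a phenol sulfotransferase (4.01). Next came the plasma ferroxidase ceruloplasmin, Cp (3.82), urate oxidase, Uox (3.74), and the water channel Aqp8 (3.71). Of the 10 highest genes by the naming rule, Ctrb1 and Ckm are known from pancreas and skeletal muscle, and they are described with those tissues' markers.

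The 10 lowest genes by the same rule, which takes genes whose groups do not overlap and so leaves out mt-Co3, were led by embryonic globins, described with the blood genes. The others that encode proteins were Hsd3b6, a steroid dehydrogenase (3.56, 4.28, 2.08 and 1.78 TPM at E15.5 and E16.5, against 12.7, 10.3, 5.62 and 6.96 TPM at E13.5 and E14.5, -1.33), Asb4, of an embryonic ubiquitin ligase complex (3.32, 3.94, 3.37 and 3.07 TPM, against 13.53, 11.7, 6.66 and 7.46 TPM, -1.25), Rangrf (-1.27), Hddc2 (-1.16), the chromatin protein Hmga2 and Snurf, which shares its transcript with Snrpn (-1.36). Hsd3b6 was lower at each later stage. The lack of overlap between the groups was required by the rule and is no finding about these genes. Mir719, a short miRNA gene (-2.92), stood at 0 in both E15.5 libraries and was not called without them (-0.54).

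**Figure D1:**
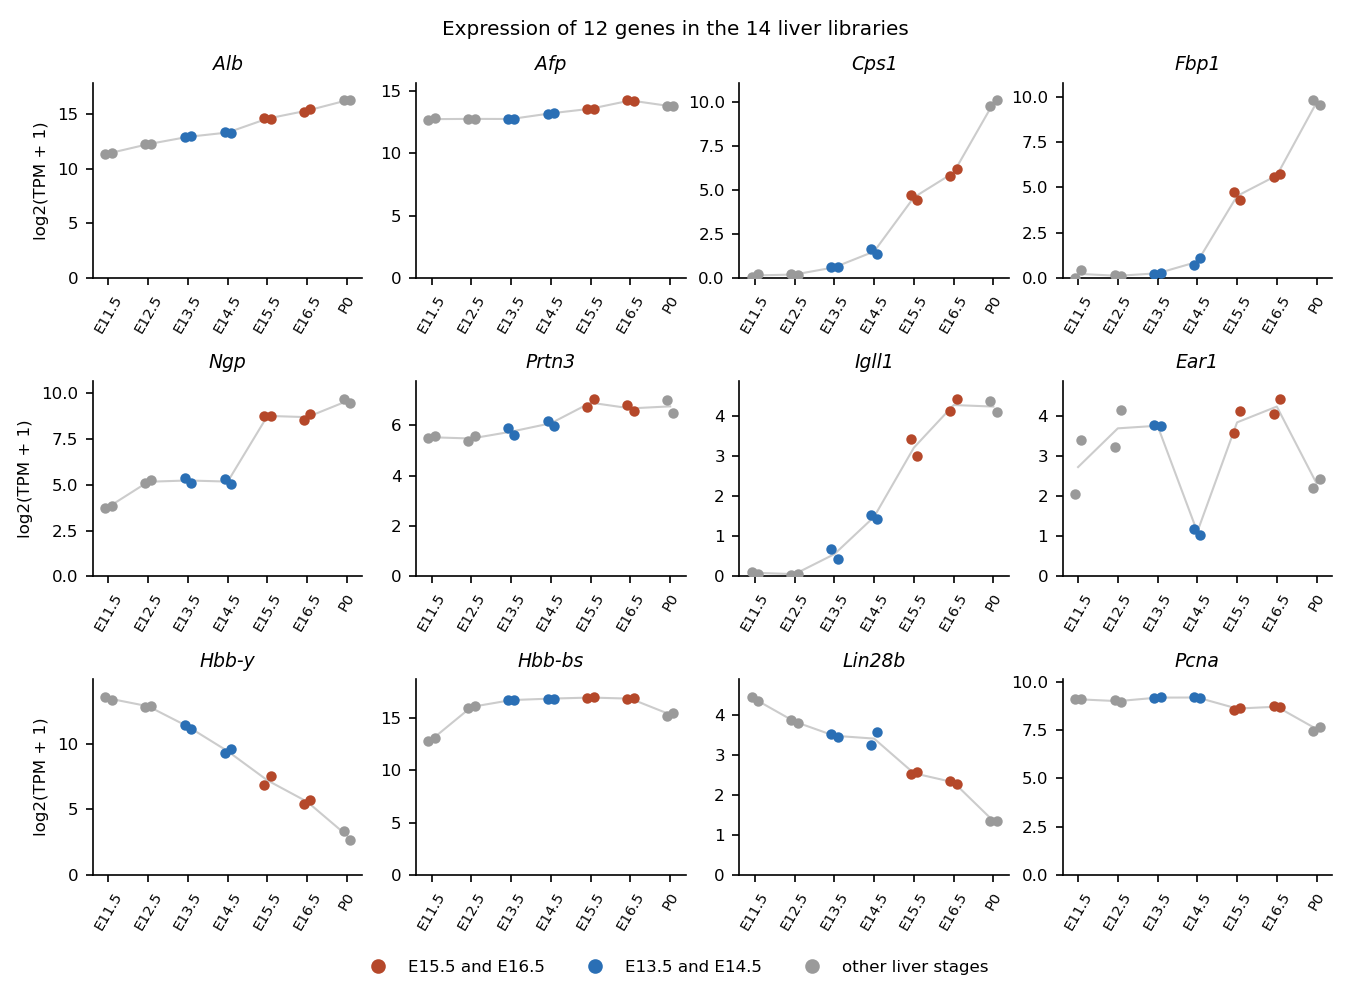
Log2(TPM + 1) of 12 genes against stage in the 14 liver libraries; each point is a library, lines join stage means, and the y axes differ between panels. Fbp1 and Cps1 stayed below 2.5 TPM through E14.5 and were at 19 TPM or more from E15.5 on, Ngp was level at E13.5 and E14.5 and level again at E15.5 and E16.5, and Hbb-y was lower at each later stage.

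Most genes in a list of plasma proteins and fetal hepatocyte genes, called the plasma protein list below, were higher. The list also holds the membrane proteins Dlk1, Gpc3 and Tfrc. Of 23 listed genes 22 were tested, and 16 were higher and none lower, beside 4.4% of all tested genes higher. The median was 1.68, beside -0.08 for all tested genes, and 17 were higher without the E15.5 libraries. Alb, serum albumin, the main carrier protein of plasma (ENSMUSG00000029368.9, mm10 chromosome 5, 90460897 to 90476602), measured 25454, 24368, 37392 and 45774 TPM at E15.5 and E16.5, against 7624, 7995, 10342 and 10224 TPM at E13.5 and E14.5 (1.84 ± 0.06, adjusted p = 8.1e-10). The libraries were ordered by stage without overlap, and the difference was 0.79, below the size threshold, after quantile normalization, which compresses the highest values. Its fetal relative Afp, alpha-fetoprotein, reached 12051, 12149, 19373 and 18967 TPM, against 6819, 6878, 9266 and 9506 TPM, and its difference of 0.93 ± 0.04 (adjusted p = 8.5e-09) fell short of the size threshold, which it passed without the E15.5 libraries (1.26). By TPM, Afp and Alb were thus near each other at E13.5, and Alb was about 2-fold above Afp at E15.5 and E16.5. Also called were Ahsg (fetuin A, 2.82), Hp (haptoglobin, which binds free haemoglobin, 3.08) and Itih4 (an inter-alpha-trypsin inhibitor chain, 2.79). Hp moved to 115, 113, 186 and 224 TPM, against 14.54, 11.6, 23.8 and 21.2 TPM. Rbp4, the retinol carrier, stood at 0.34 and was not called.

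The 250 bases before the RefSeq start (GRCm38.p6) of Alb (chr5:90460620-90460869, plus strand) and Ahsg (chr16:22891765-22892014, plus strand) are shown because both genes belong to the group that moved together. Capitals mark matches on either strand. The searched letters were GTTAAT for the half-site of HNF1, CAAAGTNCA for the site of HNF4, TTGCNNAA for C/EBP proteins and AGATAA for GATA factors. They were CCACCC for the box bound by KLF proteins, and GGGTCA for the half-site of nuclear receptors. HNF1, HNF4 and C/EBP proteins are known regulators of liver genes, GATA factors and KLF1 of red cell genes.
Alb: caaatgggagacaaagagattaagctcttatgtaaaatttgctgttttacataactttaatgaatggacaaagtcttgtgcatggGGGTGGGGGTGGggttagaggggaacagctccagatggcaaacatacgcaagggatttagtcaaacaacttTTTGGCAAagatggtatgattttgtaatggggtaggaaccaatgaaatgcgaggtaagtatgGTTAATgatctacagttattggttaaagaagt
Ahsg: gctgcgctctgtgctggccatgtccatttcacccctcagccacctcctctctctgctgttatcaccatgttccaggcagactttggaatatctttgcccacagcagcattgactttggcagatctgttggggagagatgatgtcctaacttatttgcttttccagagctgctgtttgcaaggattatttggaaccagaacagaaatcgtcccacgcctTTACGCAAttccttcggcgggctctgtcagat
In the Alb window GTTAAT lies 32 to 27 bases before the start, and a C/EBP match lies 94 to 87 bases before it. CCACCC matches lie 165 to 160 and 159 to 154 bases before it. The matches do not overlap one another. Of all 32851 promoter windows from RefSeq, 6.43% hold GTTAAT, against 8 of the 23 windows of 19 matched genes of the plasma protein list, or 34.8%. For TTGCNNAA the shares are 9 of these 23 windows, or 39.1%, and 9.56% of all windows. Among the 513 windows of the genes called higher, 11.7% hold GTTAAT and 17.5% hold TTGCNNAA, and among the 12415 windows of all tested genes 4.41% and 7.89% do. CAAAGTNCA was found in 0 of the 23 plasma protein windows, in 4.68% of the windows of higher genes and in 1.19% of all windows. CCACCC was in 47.8% of the plasma protein windows and in 28.1% of all windows, and GGGTCA in 21.7% and 11.6%. These are matches to letters and describe no binding.

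Most clotting and complement genes and some lipid transport genes were higher too. With all libraries, 4.4% of all tested genes were higher. Of 20 coagulation genes tested 16 were higher (median 1.45), as they were without the E15.5 libraries. Among them were the fibrinogen chains Fga (849, 837, 1244 and 1380.2 TPM at E15.5 and E16.5, against 232, 229, 353 and 332 TPM at E13.5 and E14.5, 1.9) and Fgg (1.82), factor XI, F11 (2.03), and the histidine-rich glycoprotein Hrg (2.14). The heparin cofactor Serpind1 (0.68) and the plasmin inhibitor Serpinf2 (0.62) were not called. Complement and acute phase genes had 18 of 22 higher (median 1.40; 21 without the E15.5 libraries). C4b, of the classical pathway, stood at 11.8, 12.1, 27 and 26.7 TPM, against 0.98, 0.55, 3.24 and 3.41 TPM (2.78). C9, of the membrane attack complex, and serum amyloid P, Apcs, followed at 2.3 and 2.26, and Hc, complement C5, at 0.88 was called only without E15.5 (1.14). Of 20 apolipoprotein and lipid transport genes 10 were higher (median 1.07; 11 without the E15.5 libraries), with Apoh, which binds phospholipid, at 2.42, Apoc4 at 1.91 and Apoc1 at 1.62. Apoc2, the lipase activator (0.9), and the sphingosine phosphate carrier Apom (0.61) were not called.

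**Figure D2:**
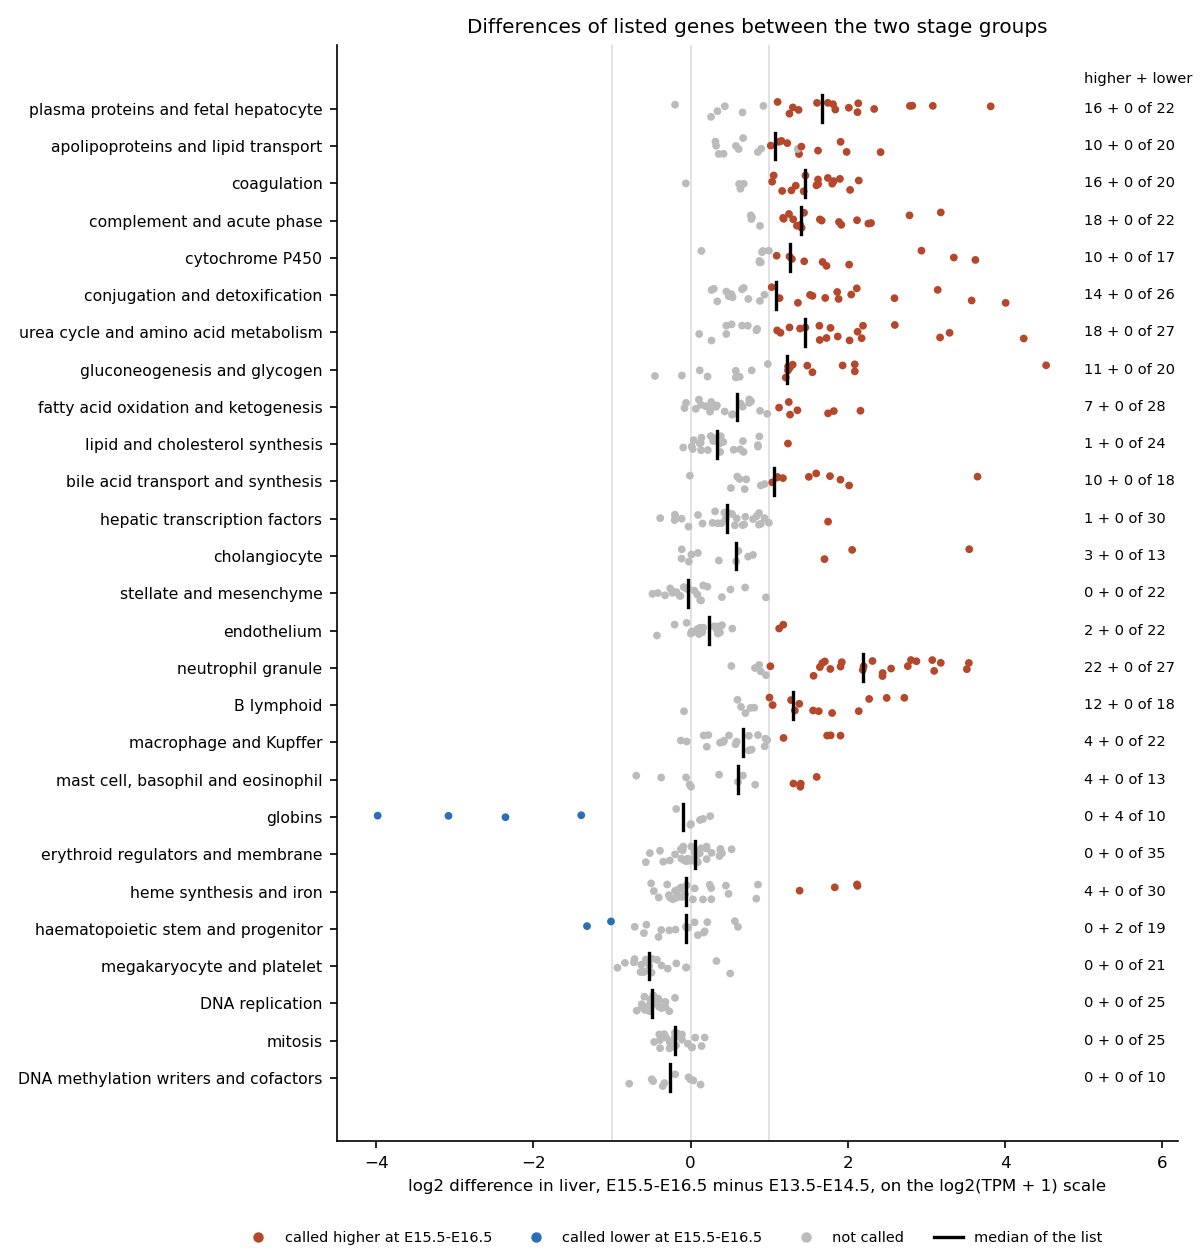
Log2 differences in liver (E15.5-E16.5 minus E13.5-E14.5) of the tested members of 27 gene lists, 1 row a list; red points were called higher, blue points lower and grey points not called, and black bars mark list medians. The plasma protein list has a median of 1.68, the neutrophil list 2.19, the B lymphoid list 1.30 and the erythroid list 0.05, and the 4 called globins lie between -1.39 and -3.98.

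Genes that oxidise and conjugate drugs and steroids were higher in many cases, beside 4.4% of all tested genes. Of 29 listed cytochrome P450 genes, the haem enzymes that oxidise drugs, steroids and bile acids, 17 were tested and 10 were higher (median 1.26); without the E15.5 libraries 16 were. Cyp3a11, a major drug-oxidising enzyme, rose to 19.5, 22.3, 32.4 and 41.1 TPM at E15.5 and E16.5, against 0.57, 0.53, 2.83 and 2.17 TPM at E13.5 and E14.5 (3.62 ± 0.11, adjusted p = 2.8e-10). The isoform Cyp3a16, known from fetal mouse liver, was the higher of both in every one of the 8 libraries, with 41.7, 37.4, 62.4 and 77 TPM at E15.5 and E16.5, against 4.13, 2.98, 10.1 and 9.45 TPM (2.94). Cyp2d26 (3.35) and the bile acid 12-alpha-hydroxylase Cyp8b1 (2.02) were also called. Close relatives in the Cyp2d, Cyp3a, Ces1, C4, Serpina1, Ear, Stfa and Vpreb families share sequence, so the split of reads among such copies is uncertain for each member named here. Por, the reductase that feeds electrons to P450 enzymes, was called only without E15.5 (0.88 with all libraries, 1.08 without). Of 26 conjugation and detoxification genes 14 were higher (median 1.08; 17 without E15.5), among them the alcohol dehydrogenase Adh1 at 3.58 and the carboxylesterases Ces1c at 3.14 and Ces1d at 2.59. The metallothioneins Mt1 and Mt2, which hold zinc, were abundant in both groups (1902 to 2482 and 2023 to 2583 TPM at E15.5 and E16.5, against 1167 to 2138 and 1308 to 2459 TPM), overlapped, and were not called (0.46 and 0.3).

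Genes of nitrogen disposal were mostly higher, and with them some genes of methyl group metabolism, beside 4.4% of all tested genes. Urea cycle and amino acid genes had 18 of 27 tested members higher (median 1.46; 21 without E15.5). Arg1, which releases urea, stood at 49.2, 43, 79.5 and 104 TPM at E15.5 and E16.5, against 3.9, 4.16, 7.81 and 8.08 TPM at E13.5 and E14.5 (3.29 ± 0.11). Mat1a, the liver form of the enzyme that makes S-adenosylmethionine, the methyl donor of methyltransferases, reached 47.6, 42.5, 87.5 and 103 TPM, against 4.17, 3.47, 10.3 and 10.2 TPM (3.17 ± 0.08). Its counterpart Mat2a, known from extrahepatic and dividing cells, fell short of the threshold at -0.72, with 57.7, 61.3, 61.2 and 58.7 TPM, against 109, 99.3, 88.9 and 101 TPM, without overlap. By TPM Mat2a thus stood above Mat1a at E13.5 and below it in both libraries of E16.5. Gnmt, a methyltransferase that consumes S-adenosylmethionine on glycine (2.6), Pemt, of phosphatidylcholine synthesis (1.76), and Cbs, which commits homocysteine to cysteine (1.78), were called too, and the methionine cycle list had 8 of 19 members higher (9 without E15.5). Glutamine synthetase, Glul, was not called (0.27).

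Glucose and glycogen genes had 11 of 20 tested members higher (median 1.22, and 13 without E15.5), beside 4.4% of all tested genes. Beside Fbp1 these included Ppp1r3c and Ppp1r3b, subunits that direct a phosphatase to glycogen (2.09 and 1.93), and the secreted growth factor binder Igfbp1, with 157, 134, 267 and 238 TPM at E15.5 and E16.5, against 31.5, 26.6, 43 and 105 TPM at E13.5 and E14.5 (2.09 ± 0.22). Gys2, the liver glycogen synthase (0.57), and the glycolytic pyruvate kinase gene Pklr (-0.45) were not called. In fatty acid oxidation and ketogenesis 7 of 28 were higher (median 0.58), and 12 were without the E15.5 libraries. Acaa1b, of peroxisomal oxidation (1.82), and Acsl1, which activates fatty acids (1.36), were called. Of 24 genes of lipid and cholesterol synthesis 1 was higher, a share near the 4.4% of all tested genes. It was Dgat2, of triglyceride assembly (1.24), and without E15.5 3 of the 24 were higher.

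Bile acid genes had 10 of 18 tested members higher (median 1.07), beside 4.4% of all tested genes, and 13 higher without E15.5. The uptake transporter Slc10a1 (NTCP) reached 16.8, 14.53, 26.4 and 37.9 TPM at E15.5 and E16.5, against 0.7, 0.51, 1.41 and 0.91 TPM at E13.5 and E14.5 (3.65 ± 0.11, adjusted p = 5.1e-10) and was at 1.41 TPM or less in each earlier library. The export pump Abcb11 (BSEP) was already present, with 15.8, 16.1, 23.6 and 27.6 TPM, against 3.69, 4.2, 6.67 and 6.93 TPM (1.77 ± 0.1). Acox2, which shortens the side chain of bile acid precursors, was called at 1.91. The phospholipid floppase Abcb4, whose product protects bile ducts, had 23.8, 25.4, 25.9 and 23.7 TPM, against 22, 21.6, 25.7 and 31 TPM (-0.01 ± 0.06), and the groups overlapped.

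Of 30 tested transcription factors of the liver 1 was called higher, a share near the 4.4% of all tested genes. It was Ppara, the fatty acid sensor, with 7.32, 7.16, 14.1 and 14.9 TPM at E15.5 and E16.5, against 1.57, 1.72, 2.83 and 3.78 TPM at E13.5 and E14.5 (1.75 ± 0.08, adjusted p = 1.2e-08). The median was 0.47. Hnf4a, a central hepatocyte regulator, stood at 35.1 to 48.2 TPM, against 20.4 to 32.9 TPM, without overlap but below the size threshold (0.68), and Xbp1, of the secretory pathway, at 0.31. The count depended on the setting: 7 of 30 passed without the E15.5 libraries, 3 after median-of-ratios scaling and 2 after quantile normalization.

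Embryonic globins fell, and no adult globin passed the test. Globins are the protein chains of haemoglobin, and mice replace the embryonic chains, made by primitive red cells of the yolk sac, with adult chains in the definitive red cells of the liver. Hbb-y, the embryonic beta-like globin (ENSMUSG00000052187.3, mm10 chromosome 7, 103851749 to 103853216), fell to 116, 187, 42.5 and 51.4 TPM at E15.5 and E16.5, against 2840.4, 2286, 627 and 764 TPM at E13.5 and E14.5 (-3.98 ± 0.16, adjusted p = 3.2e-09). It was lower at every later stage. Hbb-bh1 fell to 36.6, 47.7, 28.2 and 24.2 TPM, against 349, 330.4, 255 and 232 TPM (-3.08 ± 0.08), and the embryonic alpha-like Hba-x to 21.4, 29.1, 11.9 and 10.2 TPM, against 231, 150, 40.8 and 45 TPM (-2.36 ± 0.18). The step of Hbb-bh1 was -0.48 at E14.5 (not called) and -2.51 at E15.5, whereas that of Hba-x was -2.09 at E14.5 and -0.75 at E15.5 (not called). The adult chain Hbb-bs had 126512, 132658, 117218 and 123968 TPM at E15.5 and E16.5, against 110583, 108452, 121109 and 120759 TPM at E13.5 and E14.5 (0.12 ± 0.07, adjusted p = 0.16), and its reads could be divided with a near-identical copy. In all 4 of 10 tested globins were lower, beside 0.654% of all genes. Hbb-bh0, the fourth, stood at 0 in both E15.5 libraries, overlapped between the groups and was not called without them (-0.96).

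The 250 bases before the start of Hbb-y (chr7:103853208-103853457, minus strand) and Hba-x (chr11:32276350-32276599, plus strand) are shown as the 2 embryonic chains with a RefSeq window, with the same motifs in capitals.
Hbb-y: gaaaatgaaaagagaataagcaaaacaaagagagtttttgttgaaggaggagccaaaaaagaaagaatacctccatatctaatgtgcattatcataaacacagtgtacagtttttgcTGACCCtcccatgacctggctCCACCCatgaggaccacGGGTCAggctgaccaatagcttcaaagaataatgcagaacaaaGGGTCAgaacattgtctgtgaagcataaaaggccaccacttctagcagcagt
Hba-x: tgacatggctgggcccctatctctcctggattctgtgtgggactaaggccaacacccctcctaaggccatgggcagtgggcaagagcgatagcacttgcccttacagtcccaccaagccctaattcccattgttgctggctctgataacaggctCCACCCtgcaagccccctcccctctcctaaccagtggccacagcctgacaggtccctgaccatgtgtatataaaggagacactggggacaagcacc
Both hold CCACCC, 112 to 107 bases before the start in Hbb-y and 96 to 91 in Hba-x, as do 5 of the 9 globin windows and 28.1% of all windows. Hbb-y also holds GGGTCA at 3 places, 133 to 128, 95 to 90 and 52 to 47 bases before the start, where 11.6% of all windows hold it at least once. AGATAA is in neither, which says only that these letters are not in these windows.

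No gene of the red cell list passed the rule. Of 35 tested erythroid regulators and membrane proteins none was called in the limma fit (median 0.05), nor was any without the E15.5 libraries. With 4.4% of all tested genes higher and 0.654% lower, a list of this length holds few calls or none. Slc4a1, the anion exchanger of the red cell membrane, stood at 0.27 with overlapping groups, Bpgm, which sets oxygen affinity, at 0.52, and the progenitor factor Myb at -0.52. Bcl11a, known as a repressor of embryonic and fetal globin genes, was at 14, 13.2, 11.7 and 9.37 TPM at E15.5 and E16.5, against 18.3, 16.9, 17.4 and 20.5 TPM at E13.5 and E14.5 (-0.57, not called). Of 30 heme and iron genes 4 were higher, beside 4.4% of all tested genes. All 4 are known from hepatocytes: transferrin, Trf (2.12), the iron hormone hepcidin, Hamp (2.12), and its regulators Hfe2 (1.83) and Tmprss6 (1.39). Trf measured 8974, 8910.2, 12060.2 and 12312 TPM, against 1926, 1836, 2899.6 and 3213 TPM. Hamp had 4.44 and 1.12 TPM at E13.5, 6.27 and 5.47 TPM at E14.5, 28.4 and 24.4 TPM at E15.5 and 18.6 and 12.1 TPM at E16.5, and was thus highest at E15.5. The ferritin light chain Ftl1 was not called (-0.41).

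Of the neutrophil list 22 of 27 genes were higher, beside 4.4% of all tested genes. It holds granule genes and other neutrophil genes, such as Csf3r, Cxcr2 and Cebpe. Its median, 2.19, was the highest of the 50 lists, which were chosen with earlier results of these data known. Granule proteins are made in order as neutrophils mature, first those of primary granules in promyelocytes and then those of secondary and tertiary granules. Among genes of the later granules, Ngp (ENSMUSG00000032484.7, mm10 chromosome 9, 110419747 to 110423012) reached 425, 431, 369 and 452 TPM at E15.5 and E16.5, against 40.1, 33.1, 38.2 and 31.9 TPM at E13.5 and E14.5 (3.51 ± 0.1, adjusted p = 1.8e-10). The 4 values of each group lay close together and far from those of the other group. Ltf, lactoferrin, showed 83, 81.7, 93.1 and 105 TPM, against 9.78, 8.93, 11.2 and 8.85 TPM (3.1 ± 0.08), Lcn2, which binds bacterial iron carriers, 168 to 208 TPM, against 16.3 to 23.1 TPM (3.18), and Chil3, a chitinase-like protein, 10.3, 7.48, 16.6 and 29.3 TPM, against 0.26, 0.11, 0.4 and 0.43 TPM (3.54). Chil3 was below 1 TPM in each library of E13.5 and E14.5 and entered the test only through the later libraries. Among primary granule enzymes Elane, neutrophil elastase, was called (1.56), which was named after its value was seen. Mpo, myeloperoxidase, had 196, 232, 204 and 158 TPM, against 135, 116, 156 and 141 TPM (0.52 ± 0.1), and Prtn3, proteinase 3, 106, 132, 110 and 93.1 TPM, against 58.3, 47.8, 71.7 and 62.4 TPM (0.87 ± 0.12); neither was called. All 22 were called at the step to E15.5 (median 1.86), beside 2.66% of all tested genes. None was called at the step to E14.5 (0.18), and 1, Chil3, at the step to E16.5 (0.24). Because the E15.5 libraries stand apart, the comparison was repeated without them: 21 of 27 were higher, and Ngp and Ltf stood at 3.48 and 3.23.

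The windows of Ngp (chr9:110419558-110419807, plus strand) and Ltf (chr9:111019042-111019291, plus strand) are shown for this group with the same motifs, C/EBP proteins being known regulators of granulocyte genes.
Ngp: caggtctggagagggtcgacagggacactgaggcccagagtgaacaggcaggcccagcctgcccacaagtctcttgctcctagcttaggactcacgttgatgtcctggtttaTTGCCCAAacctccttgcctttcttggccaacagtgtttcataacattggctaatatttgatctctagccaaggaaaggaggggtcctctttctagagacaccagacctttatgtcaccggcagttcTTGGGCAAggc
Ltf: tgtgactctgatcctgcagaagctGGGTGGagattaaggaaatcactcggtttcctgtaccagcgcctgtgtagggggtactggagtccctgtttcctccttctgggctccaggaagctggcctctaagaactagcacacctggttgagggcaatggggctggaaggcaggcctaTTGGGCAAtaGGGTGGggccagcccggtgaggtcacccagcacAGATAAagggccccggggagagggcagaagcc
TTGCNNAA was found at 2 places for Ngp, 138 to 131 and 11 to 4 bases before the RefSeq start, and at 1 place for Ltf, 75 to 68 bases before it. The GENCODE start of Ngp given above lies inside its window, between the 2 matches, so the second match lies within the gene as GENCODE places it. Of the 26 windows of 25 matched neutrophil genes 10 hold it, or 38.5%, beside 9.56% of all windows. Ltf also has AGATAA 32 to 27 bases before its start, a motif that 9.99% of all windows hold. Its CCACCC matches lie 226 to 221 and 65 to 60 bases before the start, and 28.1% of all windows hold this motif.

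Eosinophil genes were low at E14.5. In the main comparison 4.4% of all tested genes were called higher. Ear1, Ear2 and Ear6, eosinophil ribonucleases with similar sequences, and Prg2, the major basic protein of eosinophil granules, were the 4 called members of 13 tested mast cell, basophil and eosinophil genes. Prg2 had 40.4 and 36.8 TPM at E13.5, 9.45 and 7.51 TPM at E14.5, 33 and 47.1 TPM at E15.5 and 59 and 68.2 TPM at E16.5. Ear1 had 12.6 and 12.4, 1.27 and 1.05, 10.8 and 16.3 and 15.4 and 20.5 TPM at these stages. The libraries of E14.5 were low, those of E13.5 were near those of E15.5, and the 2 groups overlapped for Prg2, Ear1 and Ear6. Ear1 and Prg2 were not called when the 8 libraries were fitted with 1 mean for each group of 4. At the step to E14.5, 6 of 13 were lower, beside 0.57% of all genes, and at the step to E15.5, 5 were higher, beside 2.66%. Mcpt8, a basophil protease, was not called (0.67).

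Macrophage genes had 4 of 22 tested members higher (median 0.66), beside 4.4% of all tested genes. They had 7 higher both without E15.5 and after median-of-ratios scaling. Among the 4, Clec4f and Vsig4, receptors that mark resident liver macrophages (Kupffer cells), had groups that did not overlap. This held for 43.6% of all tested genes. Clec4f had 7.19, 6.39, 14 and 17.1 TPM at E15.5 and E16.5, against 1.76, 1.76, 2.94 and 2.92 TPM at E13.5 and E14.5 (1.78). Vsig4 had 2.36, 2.14, 3.87 and 5.8 TPM, against 0.19, 0.18, 0.38 and 0.46 TPM (1.74). It was below 1 TPM in each library of E13.5 and E14.5 and entered the test only through the later libraries. Cd5l, a secreted macrophage protein, stood at 1.18. Lyz2, at 1.91, is also a neutrophil gene. Hmox1, which breaks down heme, and the protease gene Ctsb were not called (0.86 and 0.21).

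Of the B cell list 12 of 18 tested genes rose (median 1.30), beside 4.4% of all genes, and 13 did without E15.5. Among the 12 was Myl4, a myosin light chain gene (1.33), which differed by 0.56 at E14.5, 1.38 at E15.5 and -0.66 at E16.5. Whether muscle RNA has a part in its call was not tested. Its summed level, 1235 to 1297 TPM at E15.5 and E16.5, against 1176 to 1347 TPM at E13.5 and E14.5, overlapped between the groups and was mostly that of Cd24a, a surface protein also found on other blood cells, which was not called (1193, 1219, 1132 and 1146 TPM, against 1294, 1335, 1197 and 1154 TPM, -0.08). Igll1 (ENSMUSG00000075370.6, mm10 chromosome 16, 16860671 to 16863985) and Vpreb1 encode the surrogate light chain of the pre-B cell receptor. Igll1 reached 9.72, 6.96, 16.3 and 20.5 TPM at E15.5 and E16.5, against 0.61, 0.34, 1.89 and 1.71 TPM at E13.5 and E14.5 (2.72 ± 0.11, adjusted p = 3.3e-09). Vpreb1 reached 6.28, 4.41, 10.9 and 13.1 TPM, against 0.4, 0.32, 1.05 and 0.73 TPM (2.49). Cd79a, a signalling chain of the B cell receptor, and Vpreb3 followed at 2.14 and 2.27, and the linker Blnk was not called (0.64). Igll1 differed by 0.93 at E14.5, 1.72 at E15.5 and 1.06 at E16.5. In the T and NK list 6 of 23 genes were tested and 1 was higher, Gzma, a granzyme, at 2.17, 1.78, 3.79 and 5.42 TPM, against 0.1, 0.07, 0.5 and 0.31 TPM. Gzma was below 1 TPM in each library of E13.5 and E14.5 and entered the test only through the later libraries. Of the MHC class II and dendritic cell list 2 of 9 were higher (4 without E15.5), H2-Aa (1.1) and Cd74 (1.07), both below 6 TPM throughout. Among 19 interferon response genes Rsad2 (1.73) and Ifi27l2a (1.0) were higher, and Ifi27l2a, at the threshold, was not called without E15.5 (0.63) or without any 1 of 4 single libraries (0.89 to 0.99).

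Among progenitor genes the called ones were lower, and no platelet gene was called. Of 19 stem and progenitor genes (median -0.06) 2 were lower, beside 0.654% of all genes, and 7 stood above 0. The 2 were Hmga2 and Lin28b, a chromatin protein and an RNA-binding protein known to mark fetal stem cells and early embryonic timing. Lin28b (ENSMUSG00000063804.7, mm10 chromosome 10, 45376620 to 45486395), which blocks maturation of let-7 miRNAs, fell to 4.68, 4.93, 4.09 and 3.83 TPM at E15.5 and E16.5, against 10.4, 9.78, 8.46 and 10.8 TPM at E13.5 and E14.5 (-1.01 ± 0.07, adjusted p = 3.4e-07), and Hmga2 to 4.6, 4.85, 3.78 and 3.19 TPM, against 14.9, 13.4, 8.87 and 10.2 TPM (-1.32 ± 0.07). Lin28b lies at the size threshold and missed it after median-of-ratios scaling (-0.95) and without any 1 of 4 single libraries (-0.93 to -1.0). Cd34, a surface marker of progenitors, was not called (-0.56). None of 21 megakaryocyte and platelet genes was called by limma, with a median of -0.53. The platelet chemokine Pf4 came closest, with 107, 116, 111 and 113 TPM, against 212, 223, 221 and 199.8 TPM and no overlap (-0.93 ± 0.07), beside Ppbp (-0.59) and the platelet tubulin Tubb1 (-0.72).

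No division gene passed the rule. None of 25 DNA replication genes was called (median -0.49), none of 25 mitosis genes (-0.20) and none of 20 G1 genes (0.01), by limma with and without the E15.5 libraries. Of all tested genes 4.4% were higher and 0.654% lower, a background at which lists this short hold few calls or none. All 25 replication genes lay below 0, from -0.69 to -0.20. They summed to 1802 to 2045 TPM at E15.5 and E16.5, against 2635 to 2855 TPM at E13.5 and E14.5. Of the 25 mitosis genes 5 lay above 0. Mki67, the proliferation antigen, had 316, 351, 308 and 312 TPM at E15.5 and E16.5, against 319, 314, 312 and 327 TPM at E13.5 and E14.5 (0.02 ± 0.07, adjusted p = 0.87). Pcna, the replication clamp, had 377, 405, 423 and 413 TPM, against 573, 587, 588 and 576 TPM, a gap without overlap that missed the size threshold (-0.52 ± 0.06). Cdk4 (-0.62) and Ccnd2 (-0.79), of the G1 phase, missed it too.

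DNA methylation is the subject of the series. None of 10 tested methylation writers and cofactors, 10 methyl-CpG binding genes or 24 Polycomb genes was called by limma, beside 4.4% of all genes higher and 0.654% lower, a background at which lists this short hold few calls or none. The maintenance methyltransferase Dnmt1 had 46.6, 51.9, 52.5 and 42.5 TPM at E15.5 and E16.5, against 48.7, 44.7, 60.8 and 71.1 TPM at E13.5 and E14.5 (-0.2 ± 0.09, adjusted p = 0.077), and its partner Uhrf1 73.8 to 93.8 TPM, against 82.3 to 134 TPM (-0.33). The de novo enzymes Dnmt3a (-0.35) and Dnmt3b (2.64, 2.84, 2.92 and 2.17 TPM, against 4.28, 3.9, 3.61 and 4.47 TPM, -0.48) and the remodeller Hells (22.4, 27.8, 23.3 and 21.9 TPM, against 46.4, 44.8, 37.3 and 38.3 TPM, -0.78) had groups that did not overlap. Over all tested genes the groups of 43.6% did not. Tet2, which oxidises 5-methylcytosine, was at 0.22, and Tet1 stayed under 1 TPM in all 8 libraries and was not tested. Apobec2 was the 1 called gene of 13 in the demethylation list (3.27, 4.21, 2.42 and 3.75 TPM, against 0.85, 0.5, 0.83 and 0.98 TPM, 1.29); it is best known from skeletal muscle, whose markers moved with stage and are given below. Apobec2 was below 1 TPM in each library of E13.5 and E14.5 and entered the test only through the later libraries. Of 23 imprinted genes none was called. H19, a noncoding fetal growth RNA, was just short at 6423, 6526, 6203 and 6879 TPM, against 3236, 3357, 3204 and 3700.3 TPM (0.95 ± 0.05). It passed after median-of-ratios scaling (1.04). Igf2, the fetal growth factor beside it, stood at 0.71.

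Genes of the other liver cells are set beside the 4.4% of all tested genes called higher and the 0.654% called lower. Of 22 stellate and mesenchymal genes none was called (median -0.04). Endothelial genes had 2 of 22 higher, the sinusoidal receptors Fcgr2b (1.18) and Clec4g (1.13). Of 9 mesothelial genes 1 was lower, Podxl, a surface protein of mesothelium and vessels, with 8.92, 9.05, 6.56 and 5.87 TPM at E15.5 and E16.5, against 17.5, 17.7, 16.3 and 19.9 TPM at E13.5 and E14.5 (-1.15). The cholangiocyte list had 3 of 13 higher: Tff3 (3.54), Ggt1 (2.06) and Spp1 (1.7). Tff3, a secreted trefoil peptide, measured 41.4, 37.5, 84.3 and 103 TPM, against 2.47, 2.56, 7.72 and 6.24 TPM. Of the same list Krt7 (-0.12), Jag1 (-0.02), Notch2 (0.36), Epcam (0.61) and Krt19 (0.73) were not called, and Sox9 was not tested. In a list of glucocorticoid response genes 5 of 12 were higher, among them Per1, a clock gene (1.31), beside Sult1a1, Lcn2 and Igfbp1 named above. None of 12 immediate early and stress genes was called by limma (1 was lower without E15.5).

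Markers of tissues outside the liver also moved with stage. Of 15 pancreas genes 7 were tested and 6 were higher, beside 4.4% of all tested genes. Genes such as Ctrb1 and Amy2a5 were below 1 TPM in each library of E13.5 and E14.5. They entered the test only through the later libraries, so the filter sets part of this count. The list summed to 23.3 to 142 TPM at E15.5 and E16.5, against 4.44 to 7.79 TPM at E13.5 and E14.5. Ctrb1, a digestive protease of the acinar pancreas, had 18.3, 9.4, 25.7 and 67.9 TPM, against 0.04, 0.05, 0.08 and 0.79 TPM (4.35 ± 0.5), Amy2a5, pancreatic amylase, 3.73, 1.74, 6.83 and 24.2 TPM, against 0, 0, 0.03 and 0.03 TPM, and Cpa1, a carboxypeptidase, 4.2, 3.16, 3.83 and 10.6 TPM, against 0.57, 0.66, 0.67 and 1.26 TPM. Replicate 2 of E16.5 was the highest library for each of these 3. Skeletal muscle and cartilage genes had 5 of 8 higher, among them Ckm, muscle creatine kinase, with 25.6, 32.2, 20.5 and 35.4 TPM, against 0.71, 0.11, 0.78 and 2.02 TPM (4.01 ± 0.41), Acta1, muscle actin, at 2.98 and Myh8, a fetal myosin, at 2.82. That list summed to 108 to 197 TPM, against 23.4 to 53.2 TPM, and no gene of either list was at 0 in all 8 libraries. Gut, lung, heart, nerve and skin lists held few genes above the filter, with 1 call among them, Lgals4 (1.76), and Cyp17a1, of steroid synthesis, was called in the adrenal and gonad list (1.21). Whether tissue beside the liver was carried along, and what part it has in the results above, was not tested.

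Neighbouring stages were compared in the same fit to see when the changes came. From E13.5 to E14.5, 61 genes were higher (0.47%) and 74 lower (0.57%); at the step to E15.5, 345 were higher (2.66%) and 171 lower (1.32%); and at the step to E16.5, 150 were higher (1.15%) and 93 lower (0.716%). The medians of all tested genes at these steps were 0.12, -0.17 and 0.09, and median-of-ratios scaling brought each to within 0.011 of 0. After that scaling 48 genes were higher and 91 lower at E14.5, and 482 higher and 124 lower at E15.5. The E15.5 libraries differ from all others in their short RNA. What belongs to that stage and what to those libraries thus cannot be told apart in the steps to and from E15.5. The miRNA gene sum also differed between E13.5 (71.12 and 76.42 TPM) and E14.5 (163.32 and 166.73 TPM). Of 15 mitochondrial encoded genes 1 was higher and 3 were lower at E14.5 (median -0.69). What part such differences have in the step to E14.5, and in the comparison without E15.5, was not tested. Of the plasma protein list 1, 12 and 0 of 22 members were higher at the 3 steps (medians 0.57, 1.17 and 0.56), of the urea cycle list 13 of 27 at E15.5 and 2 at E16.5 (0.99 and 0.56), and of the gluconeogenesis list 5 and 2 of 20 (0.54 and 0.75). The medians of these hepatocyte lists were positive at every step, and the neutrophil list had 0, 22 and 1 of its 27 members higher. Several extremes of single steps are short or duplicated transcripts: Mir686 was listed at 0 and 0 TPM at E13.5, 81 and 72.3 at E14.5, 0 and 0 at E15.5 and 16.1 and 40.7 at E16.5, and Hmga1b at 3.11 and 3.03, 29.7 and 43.8, 1.55 and 1.68 and 40.8 and 26.9 TPM. Mid1, a ubiquitin ligase gene, was high at E14.5 alone, with 1.66 and 1.29 TPM at E13.5, 18.2 and 28.6 TPM at E14.5, 1.55 and 1.64 TPM at E15.5 and 2.52 and 2 TPM at E16.5.

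**Figure D3:**
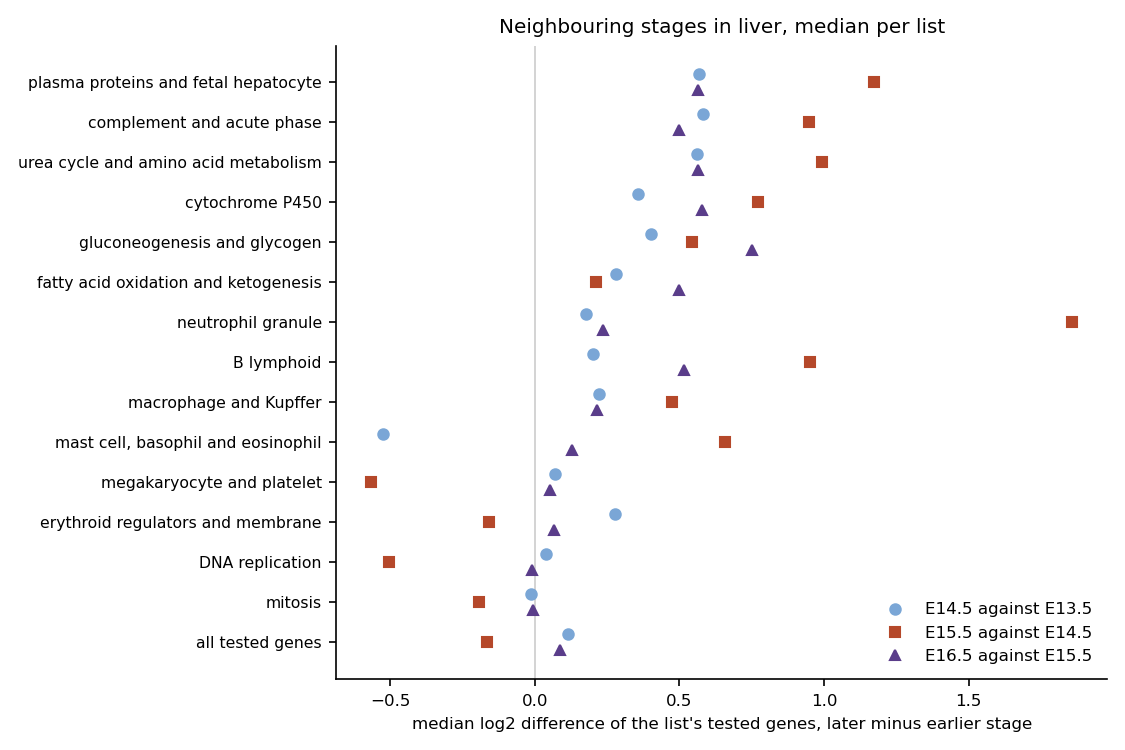
Median log2 difference of the tested genes of 14 lists, and of all tested genes, at the 3 neighbouring steps in liver (later minus earlier stage; circles E14.5 against E13.5, squares E15.5 against E14.5, triangles E16.5 against E15.5). The neutrophil list stands at 0.18, 1.86 and 0.24, the gluconeogenesis list at 0.40, 0.54 and 0.75.

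Forebrain of the same stages, with 8 libraries and no library in common with liver, gave a comparison for what is shared between tissues. In forebrain 348 genes were higher (2.08%) and 226 lower (1.35%). In a fit of 16696 genes, the liver change exceeded the forebrain change for 600 genes (3.59%) and fell below it for 398 (2.38%); these were 797 and 599 without the E15.5 libraries, and 865 and 271 after median-of-ratios scaling. Fbp1 (4.42 ± 0.15), Ctrb1 (4.35) and Cps1 (4.2 ± 0.14) led the first group. Genes of the plasma protein list exceeded the forebrain change in 12 of 22 cases. Alb was not among them. It rose by 1.56 in forebrain too (adjusted p = 0.043), where it had 3.3, 2.78, 18.1 and 0.18 TPM at E15.5 and E16.5, against 0.02, 0.01, 0.81 and 1.63 TPM at E13.5 and E14.5, with overlap, and the liver change exceeded that by 0.28 ± 0.85, which was not called. Of 27 neutrophil genes 21 exceeded the forebrain change. At the other end stood genes known from neurons and brain, such as Ptgds (-3.01), Nrgn (-2.85), Tac2 (-2.62), Dync1i1 (-2.34) and Sla (-2.19), which rose in forebrain by 3.22, 2.36, 2.47, 2.32 and 2.35.

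Some division genes fell in forebrain. In forebrain 11 of 25 mitosis genes were lower (median -0.97) and 3 of 25 replication genes (-0.84), beside 1.35% of all genes. The difference itself passed the rule for 2 of 25 mitosis genes, Nusap1 (1.21), a spindle protein, and Ube2c (1.2), which helps degrade cyclins, both named after their values were seen, and for none of 25 replication genes by limma. The median differences of these lists were 0.78 and 0.36. Mki67 changed by -0.93 in forebrain (not called). Embryonic globin RNA was measured in forebrain as well. Hbb-y fell there to 36.9, 66.7, 10.4 and 11.3 TPM at E15.5 and E16.5, against 2161, 2146, 887 and 1083 TPM at E13.5 and E14.5, a difference of -5.89, and Hba-x differed by -3.8. The liver change was called above it, by 1.91 ± 0.26 (adjusted p = 6.7e-05) for Hbb-y and by 1.45 ± 0.21 (adjusted p = 0.0001) for Hba-x, while for Hbb-bh1, at -3.08 in liver and -3.23 in forebrain, the difference of 0.15 ± 0.2 was not called (adjusted p = 0.54). Hmga2 had -2.4 in forebrain, and its liver change lay above that by 1.08 ± 0.15.

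**Figure D4:**
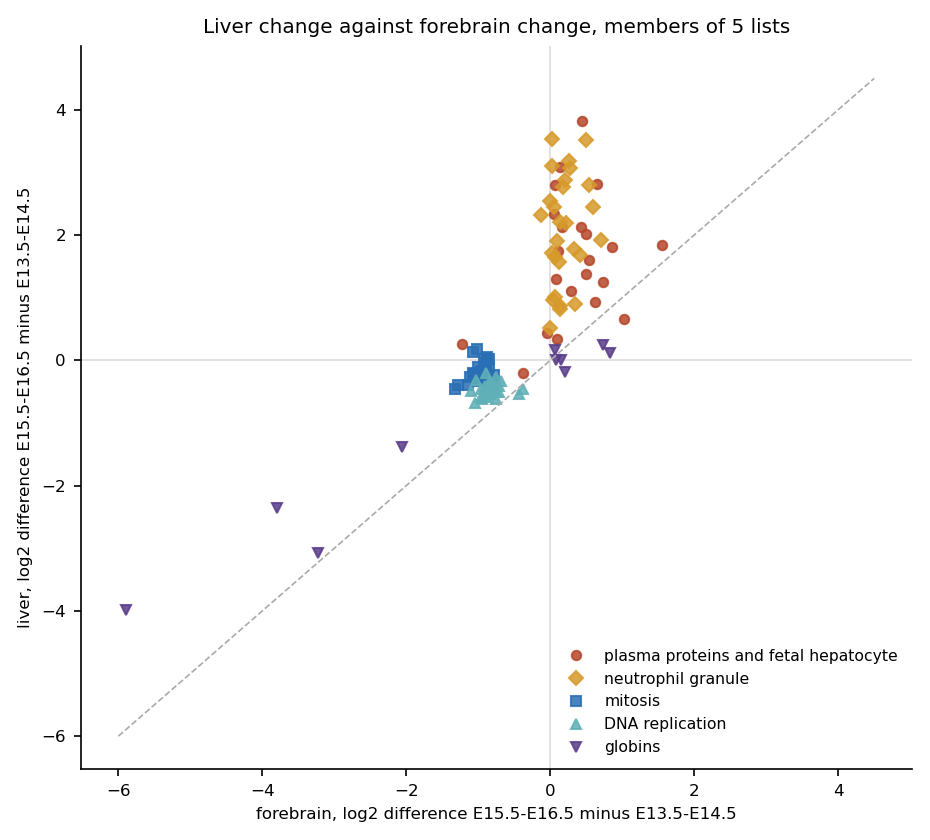
Log2 difference (E15.5-E16.5 minus E13.5-E14.5) in liver against that in forebrain for the tested members of 5 lists; each point is a gene and the dashed line marks equal change. The neutrophil list has a median of 2.19 in liver and 0.13 in forebrain, the mitosis list -0.20 in liver and -0.97 in forebrain, and Hbb-y stands at -3.98 in liver and -5.89 in forebrain.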

How the data were processed

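RNA sequencing of mouse tissue was deposited as 1 table of 43346 genes in 61 libraries. The authors deposited gene levels as TPM, which keep no depth, so the depth is unknown and no counting interval can be given. STAR 2.4.0k, RSEM 1.2.23 and the mm10 build are named in the submitters' processing notes. Stranded mRNA libraries were made from 4 µg of RNA, per the labels' protocols. Symbols and positions came from GENCODE M21, which named 42462 of the IDs.

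From these values log2(TPM + 1) was fitted with limma 3.58.1 in R 4.3.3, with 1 mean per stage over 14 liver libraries and a mean-dependent prior, and tested as the mean of E15.5 and E16.5 minus that of E13.5 and E14.5. Genes with 1 TPM or more in 2 of the 8 libraries entered. A gene could thus enter through 1 group alone, and among such genes the filter favours calls in that group. The difference from forebrain used 16 libraries. Fits were tested on simulated data. Members and lists were chosen with earlier results of these data known. Named genes are the 10 highest and 10 lowest calls whose mean reached 5 TPM and whose groups did not overlap, without predicted and ribosomal protein genes, and up to 4 called and 2 uncalled members of each list. Another 4 libraries without a clear stage were left out of the comparisons. Alternatives changed the scaling, pseudocount, filter, threshold and libraries; leaving out E15.5 was chosen after the data were seen. Promoters came from RefSeq (GRCm38.p6). Some listed genes are not reported here.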

Additional observations from a re-analysis of the deposited data

Results flagged for a closer look

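In 9 of 320 groups of 4 libraries tested, 1 library lay far from the other 3, beyond Dixon's limit; chance flags about 1 in 20 groups. Replicate 2 of E16.5 was such a library for Lcn2 (208 TPM) and the pancreatic carboxypeptidase Cpa1 (10.6 TPM), both highest there, and for Rangrf (10.3 TPM), lowest there. Replicate 1 of E16.5 stood apart for Serpinf2 (677 TPM). In the earlier group, replicate 2 of E14.5 was highest for Ctrb1 (0.79 TPM), Cpa1 (1.26 TPM) and Cyp17a1 (0.07 TPM), of pancreas and steroid-making glands. Replicate 2 of E13.5 held 1189 TPM of small nuclear RNA and 306 TPM of Rn7sk, a nuclear RNA.

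Changes in liver that differed from those in forebrain, by the limma test of the difference, were largest on the high side for Fbp1 (4.42), Ctrb1 (4.35), Cps1 (4.20), Hsd17b13 (4.13) and Azgp1 (4.09). On the low side they were Ptgds (-3.01), Nrgn (-2.85), Tac2 (-2.62), Dync1i1 (-2.34) and Sla (-2.19), among genes whose mean reached 5 TPM.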

How the results depend on the processing

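Depth is unknown, and 2 libraries a stage limit the precision. In the liver comparison, 3051 genes were higher and 4709 lower with no minimum fold, and 857 and 183 with a pseudocount of 0.1; with 1 mean per group 52 were lower. With no minimum fold, the steps to E14.5, E15.5 and E16.5 gave 2328, 1559 and 1711 higher and 493, 4417 and 409 lower genes, and the difference from forebrain 3332 and 6248. The balance of these counts depended on the scaling: after median-of-ratios scaling, with no minimum fold, the liver comparison gave 4125 higher and 3949 lower genes, the 3 steps 1525, 2772 and 1268 higher and 1507, 2129 and 1062 lower, and the difference from forebrain 4814 and 4696. With a pseudocount of 0.1, 149, 536 and 236 genes were higher at these steps, 271 were lower at E15.5, and 932 were above and 837 below the forebrain change. Without the E15.5 libraries 599 lay below the forebrain change. The cause of these shifts was not tested.

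Leaving out single libraries gave 535 to 605 higher and 79 to 125 lower genes in the main comparison, the most lower ones without replicate 1 of E13.5. The step to E14.5 then ranged over 44 to 89 higher and 59 to 117 lower genes, with 117 without the same library. The step to E15.5 ranged over 326 to 350 and 151 to 208, that to E16.5 over 108 to 200 and 83 to 92, and the forebrain difference over 573 to 631 and 382 to 422.

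Same-numbered replicates did not deviate together (correlations of -0.19 to 0.19 between stages), and the fit with the replicate number as a block again gave 571 higher and 85 lower genes.

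Signs turned without the E15.5 libraries for mt-Co3 (1.16), mt-Nd3 (-1.27), Hmga1b (1.47) and Mir686 (1.6), and among uncalled genes near 0 for Mki67 (-0.036). Median-of-ratios scaling turned Abcb4 (0.080) and Cd24a (0.0077), and quantile normalization Abcb4 (0.082), Cd24a (0.13) and Hbb-bs (0). Leaving out single libraries gave Abcb4 -0.075 to 0.056 and Mki67 -0.023 to 0.054.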
